A study of Penicillium oxalicum with 6 samples.

Results

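Amylases are secreted enzymes that break starch into glucose and short sugars. In filamentous fungi the group is made up mainly of alpha-amylases, which cut inside the starch chain, and glucoamylases, which release glucose from its ends. In Aspergillus species their genes are known to be switched on by the transcription factor AmyR in the presence of starch or maltose, and repressed on glucose. The values below describe 3 gene IDs of Penicillium oxalicum, POX01356, POX09352 and POX02412, out of 9834 IDs in the deposited tables. They were chosen by ID, with earlier results of these data known, because published work on this fungus gives them as amylase genes. The tables pair no ID with a product, so the name rests on that work, and which kind of amylase each ID encodes is not stated here.

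RNA was sequenced from mycelium of a strain in which POX09752 was deleted (labelled MuPOX09752) and from the control strain labelled Ku70, with 3 libraries each. Ku70 takes part in end-joining repair of broken DNA, and losing it makes targeted gene replacement easier in fungi. The labels do not say whether the deletion strain also lacks Ku70, whether it is 1 clone, or whether the libraries of a strain came from separate cultures, so p-values measure the spread between these libraries only. All 6 libraries are labelled as 1 g of mycelium kept for 24 h in 100 mL of liquid medium with 2% Avicel, a microcrystalline cellulose. The labels also give 28 °C, shaking at 180 rpm and spores from plates of 6 days for all of them, and no starch is named.

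The libraries held 13099454 to 14115694 counts in total. POX09752 had 0 counts in each deletion library and 1568, 1375 and 1663 counts in control replicates 1, 2 and 3. Over the 8807 tested genes, log2(FPKM + 1) values correlated at Pearson's r = 0.994 to 0.995 within the control, 0.974 to 0.991 within the deletion strain and 0.828 to 0.851 across strains. These coefficients are across genes, which are not independent replicates. Deletion replicate 3 stood apart from deletion replicates 1 and 2. For the amylase IDs, the fold changes, the calls and the differences between them are given with and without it. Group means, ranks and the values of other IDs include it unless stated.

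The response of the 3 amylase IDs was split. POX01356 and POX09352 were strongly expressed in the control and fell by more than 8-fold in the deletion strain, whereas POX02412 was strongly expressed in both strains and was not called. All 3 were at their lowest deletion level in deletion replicate 3. Levels are given in FPKM, fragments scaled to gene length and library total. In bulk mycelium, fewer hyphae that express a gene and less RNA per hypha cannot be told apart.

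POX01356 had the highest level of the 3 in the control. Its FPKM values were 1026.5, 1118 and 1238 in control replicates 1, 2 and 3, and 63.1, 66.1 and 29.4 in deletion replicates 1, 2 and 3. Every control library lay above every deletion library, and the lowest control value was far above the highest deletion value. The group means were 1127 ± 106 FPKM (control) and 52.9 ± 20.4 FPKM (deletion; SD, n = 3 each), so 4.69% of the control level was left. The log2 fold change was -4.45 ± 0.32 (SE; edgeR quasi-likelihood test, adjusted p = 1.2e-05). Without deletion replicate 3 it was -4.15 ± 0.11 (SE; edgeR, adjusted p = 1.87e-10).

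POX09352 followed the same direction from a lower starting level. It had 522, 599 and 549 FPKM in control replicates 1, 2 and 3, and 61.1, 51.3 and 27.5 FPKM in deletion replicates 1, 2 and 3. Here too the groups did not overlap, and the deletion library with the least transcript was again replicate 3. The means were 557 ± 38.6 and 46.6 ± 17.3 FPKM (SD, n = 3 each), which left 8.38% of the control level. The log2 fold change was -3.61 ± 0.28 (SE; edgeR, adjusted p = 1.8e-05), and -3.33 ± 0.11 without deletion replicate 3 (SE; edgeR, adjusted p = 6.43e-10).

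POX02412 behaved differently. It had 497, 441 and 440 FPKM in control replicates 1, 2 and 3, and 638, 602 and 294 FPKM in deletion replicates 1, 2 and 3. Deletion replicates 1 and 2 lay above all control libraries and deletion replicate 3 lay below all of them, so the groups overlapped. The means were 459 ± 32.6 and 511 ± 189 FPKM (SD, n = 3 each). The log2 fold change was 0.12 ± 0.27 (SE; edgeR, adjusted p = 0.707), and p was 1 in the exact permutation test (two-sided, on log2 of FPKM + 1). The 95% interval of the log2 fold change from limma on log2(FPKM + 1) ran from -0.58 to 0.73, which in linear terms is 0.67 to 1.66 times the control level. Without deletion replicate 3, POX02412 was higher in the deletion strain, by 0.41 ± 0.09 on the log2 scale or 1.33-fold (SE; edgeR, adjusted p = 0.0015). Without that library 33.1% of tested genes were called higher and 33.3% lower. With either of the other deletion libraries left out, POX02412 was not called.

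The order of the levels also differed between the strains. In the control libraries POX01356 lay above POX09352 and POX09352 above POX02412, with no overlap between any of the 3. In the deletion strain POX02412 lay above the others in every library, and the levels of POX01356 and POX09352 overlapped.

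**Figure D1:**
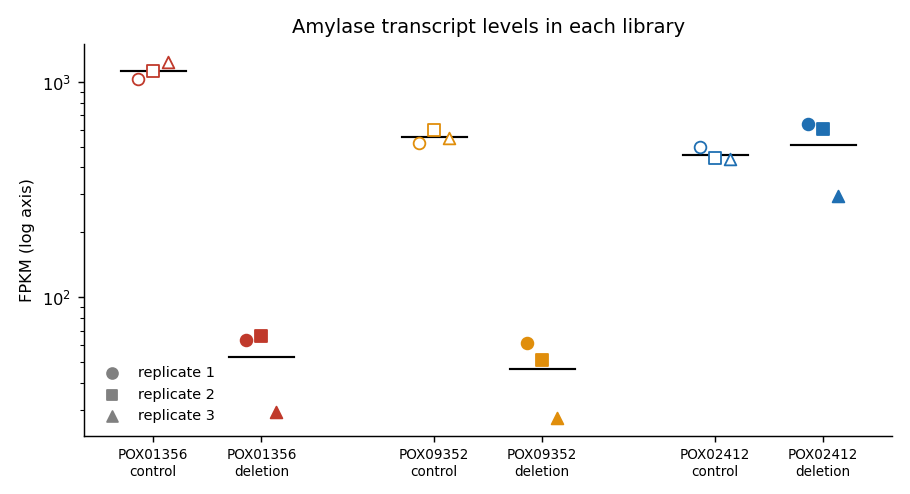
FPKM of each amylase ID in the 3 control libraries (open symbols) and the 3 deletion libraries (filled symbols), on a log axis, with symbol shape for the replicate and a line at each group's mean. POX01356 and POX09352 lie between 522 and 1238 FPKM in the control and between 27.5 and 66.1 FPKM in the deletion strain, while POX02412 runs from 294 to 638 FPKM with overlapping groups.

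In the count of calls, 2 of the 3 amylase IDs were lower in the deletion strain and 0 were higher. Without deletion replicate 3, 2 were lower and 1 was higher. Of all 8807 tested genes, 60.1% were called in either direction and 30.2% were called lower, so 2 calls among 3 IDs say little by themselves. Over all 6 libraries DESeq2 also called 0 of the 3 higher, as did edgeR at an unadjusted p under 0.05. The size of the falls was less common: 1.41% of the tested genes, 124 in number, were called lower by at least 8-fold, and POX01356 and POX09352 were the 60th and 90th when all tested genes were ordered from the largest fall. Because the IDs were chosen with earlier results of these data known, this share and these ranks are a description only. All control libraries lay above all deletion libraries for 32.2% of tested genes. For POX01356 and POX09352 alike p was 0.1 in the exact permutation test (two-sided), the lowest value that groups of 3 can reach. Over all tested genes the median log2 fold change was 0.007, and POX01356 and POX09352 lay below it while POX02412 lay above it.

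The fall moved the former 2 IDs out of the upper end of the transcriptome. By mean FPKM, POX01356 ranked 126 of 9834 IDs in the control and 2815 in the deletion strain, and POX09352 ranked 295 and 3163. POX02412 ranked 344 in the control and 285 in the deletion strain. Among the 385 tested genes with a control mean of at least 400 FPKM, a limit chosen after the amylase levels were known so that it takes in all 3, 218 were called lower, 59 were called higher and 108 were not called. Of these 385, 29 were called lower by at least 8-fold, and their median log2 fold change was -0.56. POX01356 and POX09352 lay below that median and POX02412 lay above it. The limit was set on the control alone, which favours genes that are lower in the deletion strain. These counts and the median are therefore a description only.

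**Figure D2:**
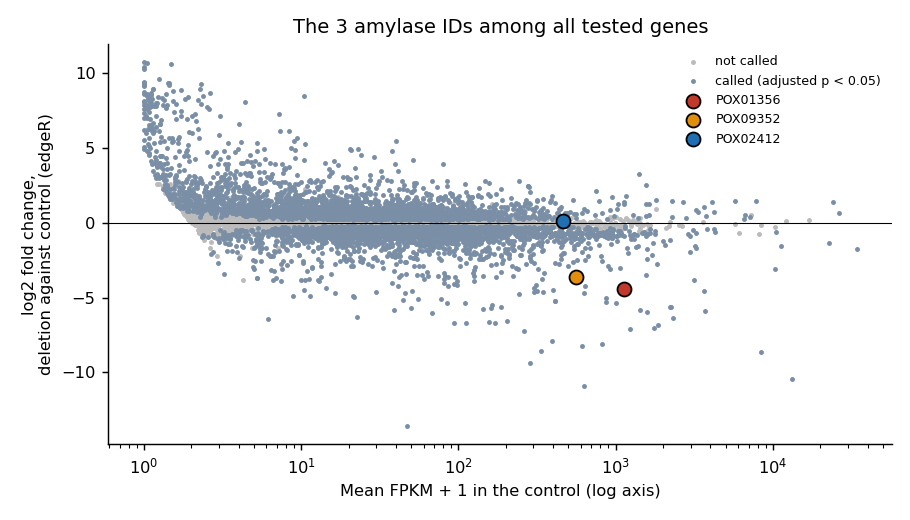
The log2 fold change of each of the 8807 tested genes (edgeR, deletion against control) against its mean FPKM + 1 in the control on a log axis, with called genes in blue-grey and uncalled genes in light grey. POX01356 at -4.45 and POX09352 at -3.61 lie below most genes of similar control level, and POX02412 at 0.12 lies close to the zero line.

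The make-up of the amylase transcripts changed with the strain. The 3 IDs together took 0.393%, 0.415% and 0.428% of all counts in control replicates 1, 2 and 3, and 0.145%, 0.137% and 0.0666% in deletion replicates 1, 2 and 3. The widest 95% exact binomial interval among the deletion libraries, in replicate 1, ran from 0.142% to 0.147%, and it covers counting error only. Of their summed FPKM, POX01356 held 50.2%, 51.8% and 55.6% in control replicates 1, 2 and 3, and 8.28%, 9.19% and 8.38% in deletion replicates 1, 2 and 3. POX02412, the smallest of the 3 in every control library with 24.3%, 20.4% and 19.8%, became the dominant one with 83.7%, 83.7% and 83.8% in the deletion libraries. Deletion replicate 3 had the lowest summed FPKM, at 351 against 762 and 719 in replicates 1 and 2, yet nearly the same composition.

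**Figure D3:**
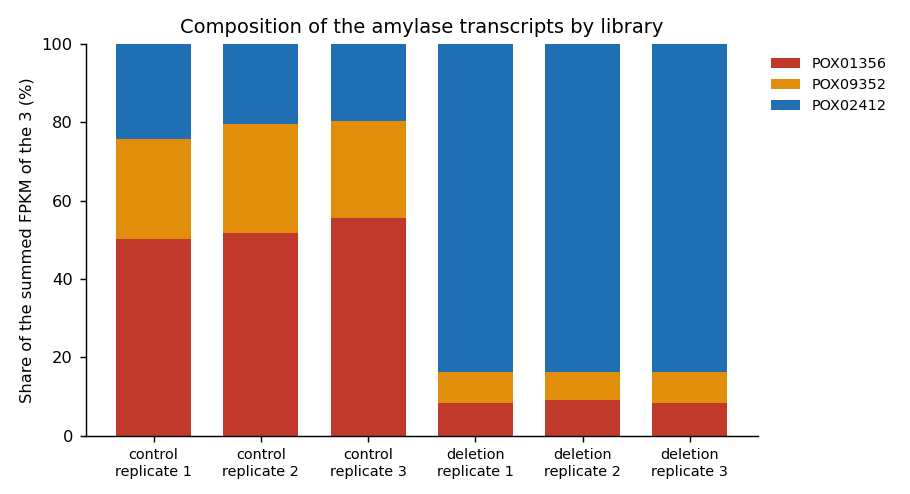
Share of the summed FPKM of the 3 amylase IDs held by each of them, in percent, as 1 stacked bar per library. POX01356 holds 50.2% to 55.6% in the control libraries, and POX02412 holds 83.7% to 83.8% in the deletion libraries.

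To compare the responses with each other, the log2 ratio of a pair of members was taken within each library, for 3 pairs. POX01356 exceeded POX09352 by 1.97, 1.87 and 2.25 times in control replicates 1, 2 and 3, and by 1.03, 1.29 and 1.07 times in deletion replicates 1, 2 and 3. The log2 ratio went from 1.01 ± 0.14 to 0.17 ± 0.17 (SD, n = 3 each; exact two-sided permutation test, p = 0.1), a difference of -0.85 or 1.8 times in linear terms. The ratio of POX02412 to POX01356 was 0.484, 0.395 and 0.356 in control replicates 1, 2 and 3, and 10.1, 9.11 and 10.002 in deletion replicates 1, 2 and 3. That is a change of -4.55 in the log2 ratio of POX01356 to POX02412, and the change for POX09352 to POX02412 was -3.70 (exact two-sided permutation test, p = 0.1 each). Without deletion replicate 3 the changes were -0.81 (POX01356 to POX09352), -4.53 (POX01356 to POX02412) and -3.72 (POX09352 to POX02412). For all 3 pairs the ratios of the strains did not overlap. The exact permutation p of 0.1 is the lowest that groups of 3 can reach, and it stayed at 0.1 after Benjamini-Hochberg adjustment over the 3 pairs.

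Among the single deletion libraries, the 3 IDs shared a low value in replicate 3. Between replicates 1 and 2 they had no common direction, since POX01356 was higher in replicate 2 and the other two were higher in replicate 1. POX01356, POX02412 and POX09352 had 45.6%, 47.5% and 48.9% of the mean FPKM of deletion replicates 1 and 2 in deletion replicate 3. Over all tested genes, 1.84% had 50% or less in this library, 162 genes in all, and 2.4% had at least 2 times the mean of the others. The 50% limit was not part of the plan and lies just above the 3 amylase values. Because the IDs were also chosen with earlier results of these data known, the 1.84% is a description only. Deletion replicate 3 was the lowest deletion library for 40.3% of tested genes. In FPKM, which are scaled to the library total, the median tested gene had 100.0% of the mean of the others. The coefficients of variation in the deletion strain were 38.5% for POX01356, 37% for POX09352 and 36.9% for POX02412, above 92.9% or more of the tested genes, whose median was 10.9%. In the control they were 9.42%, 6.94% and 7.1%, near the median of 7.04%. The high coefficients in the deletion strain largely reflect the same low replicate 3, and are not a separate observation.

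Within the control libraries the 3 IDs had no common order. Deviations from the control mean of log2(FPKM + 1) were within 0.14 for each ID, and POX01356 was highest in replicate 3, POX09352 in replicate 2 and POX02412 in replicate 1. In the deletion libraries the deviations were -0.74, -0.67 and -0.71 in replicate 3 for POX01356, POX09352 and POX02412, and 0.21 to 0.46 in replicates 1 and 2. With 3 libraries a group, no correlation was computed.

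**Figure D4:**
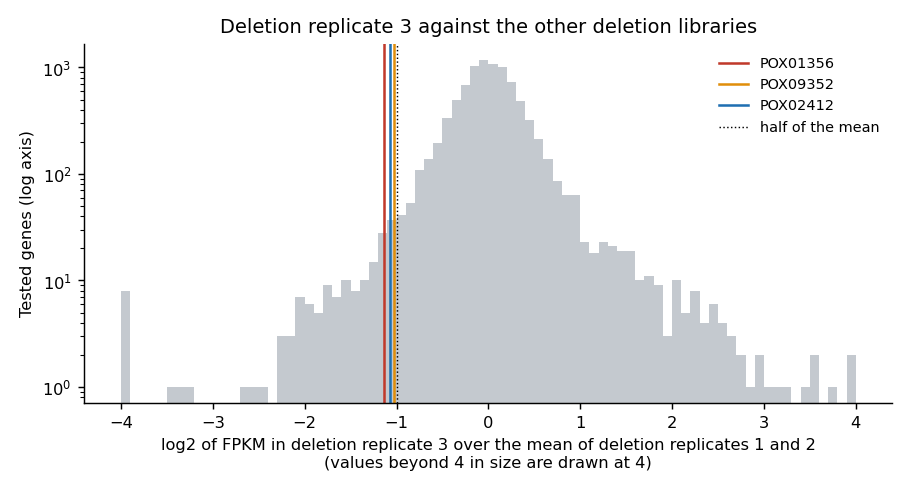
Histogram over the 8807 tested genes of the log2 ratio of FPKM in deletion replicate 3 to the mean of deletion replicates 1 and 2, with a log axis for the number of genes and a dotted line at 50% of that mean. The 3 coloured lines, at 45.6%, 47.5% and 48.9%, lie just past the dotted line. At or past that line lie 1.84% of tested genes, a description only.

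Genes with the most similar profile were sought among tested genes with a control mean of at least 10 FPKM, by the root mean square distance of log2(FPKM + 1) over the 6 libraries after each gene's control mean was subtracted. The nearest to POX01356 was POX09025, at a distance of 0.18. It had 309, 328 and 313 FPKM in control replicates 1, 2 and 3, and 19.5, 13.8 and 7.6 FPKM in deletion replicates 1, 2 and 3. It shared with POX01356 both a large difference between strains and its lowest value in deletion replicate 3, at 45.7% of the mean of the others. The next were POX06312, POX03874, POX03104 and POX03617, at 0.26 to 0.39, whose deletion replicate 3 held 76.8% to 99.9% of the mean of replicates 1 and 2. POX06312 was the most abundant of them, with 3644 ± 355 FPKM in the control libraries and 160 ± 23.4 FPKM in those of the deletion strain (SD, n = 3 each).

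For POX09352 the nearest gene was POX07423, at a distance of 0.14. It had 58.2, 60.6 and 59.1 FPKM in control replicates 1, 2 and 3, and 5.69, 4.88 and 2.86 FPKM in deletion replicates 1, 2 and 3, so it ran parallel to POX09352 at a lower level. POX06345, POX03933, POX02069 and POX05188 followed at 0.23 to 0.29. POX01356 and POX09352 were 0.61 apart, and 25 of 6695 genes were nearer to POX01356 than POX09352 was. For POX02412 the nearest genes were POX06351, POX02603, POX06052, POX03912 and POX08241, at 0.08 to 0.15. Each of these was above its control range in deletion replicates 1 and 2 and below it in replicate 3, and POX08241, the strongest, had 287, 291 and 280 FPKM in control replicates 1, 2 and 3, and 452, 452 and 176 FPKM in deletion replicates 1, 2 and 3. These genes were chosen for their pattern, so their values are a description, and no table used here names their products.

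IDs numbered next to the amylase IDs did not form a common response. Of the 30 IDs within 5 numbers of an amylase ID, 9 were below the expression filter and 21 were tested. Of these, 11 were lower, 5 were higher and 5 were not called (edgeR, adjusted p under 0.05), against 30.2% lower and 29.8% higher among all tested genes. The median log2 fold change of the 21 was -0.37. Without deletion replicate 3, 12 were lower and 6 were higher, against 33.3% lower and 33.1% higher among all tested genes. Whether ID numbers follow the order of genes along the chromosomes could not be checked here, and neighbouring IDs are not independent.

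No ID numbered close to POX01356 had a fall of similar size. Of 6 tested IDs near it, 2 were lower and 2 higher, with log2 fold changes from -0.46 to 0.85. The shares over all tested genes were 30.2% lower and 29.8% higher. The adjacent POX01357 had 31.5, 36.1 and 33.3 FPKM in control replicates 1, 2 and 3, and 25.5, 30.6 and 23.6 FPKM in deletion replicates 1, 2 and 3, a log2 fold change of -0.37 ± 0.12 (SE; edgeR, adjusted p = 0.0246). The adjacent ID on the other side, POX01355, was below the filter, with means of 0.97 FPKM (control) and 0.58 FPKM (deletion). None of the 6 tested IDs changed by 4-fold or more (0 in either direction, against 8.21% of all tested genes).

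Around POX09352 changes were larger and went both ways. Of 7 tested IDs, 5 were lower, 1 was higher and 1 did not pass the test, with a median log2 fold change of -1.19. Among all tested genes 30.2% were lower and 29.8% higher. The adjacent POX09353 moved opposite to POX09352: it had 3.6, 5.1 and 4.56 FPKM in control replicates 1, 2 and 3, and 59.6, 66.5 and 19.5 FPKM in deletion replicates 1, 2 and 3. All deletion libraries lay above all control libraries, and the log2 fold change was 3.43 ± 0.45 (SE; edgeR, adjusted p = 0.000309). Without deletion replicate 3 it was 3.81 (edgeR, adjusted p = 4.8e-10). Like the amylase IDs, POX09353 had its lowest deletion level in replicate 3. On the other side POX09351 had means of 1.48 FPKM (control) and 2.18 FPKM (deletion) and was not called (edgeR, adjusted p = 0.205), but it was called higher without deletion replicate 3 (log2 fold change 0.82; edgeR, adjusted p = 0.0133).

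Near POX09352, 3 IDs fell by at least 4-fold, against 2.87% of all tested genes. POX09347 went from 27.2 ± 0.47 to 3.81 ± 1.2 FPKM, POX09356 from 36.6 ± 1.8 to 8.4 ± 1.89 FPKM, and POX09357 from 32.2 ± 1.64 to 4.12 ± 1.44 FPKM (SD, n = 3 each). Each of the 3 had its lowest level in deletion replicate 3. Falls continued on both sides outside this window, which was examined after the values were seen. Of 9 tested IDs at 6 to 10 numbers from POX09352, 6 fell by at least 4-fold, namely POX09345, POX09346, POX09358, POX09359, POX09360 and POX09361, and 2 others were higher. POX09345 fell 4.53-fold, the least of them. The largest fall was that of POX09358, which had 13730, 13501 and 12254 FPKM in control replicates 1, 2 and 3, and 9.76, 13 and 6.9 FPKM in deletion replicates 1, 2 and 3. Its log2 fold change was -10.41 ± 0.31 (SE; edgeR, adjusted p = 1.32e-07). At 6 to 10 numbers from POX01356, 1 of 4 tested IDs fell by at least 4-fold. At that distance from POX02412, 1 of 8 tested IDs fell and 1 rose by at least 4-fold.

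The IDs around POX02412 were mixed. Of 8 tested IDs, 4 were lower, 2 were higher and 2 did not pass the test, against 30.2% lower and 29.8% higher among all tested genes. The adjacent POX02411 had means of 152 ± 16.1 FPKM (control) and 167 ± 6.07 FPKM (deletion) and was not called (SD, n = 3 each; edgeR, adjusted p = 0.313), and POX02413 was below the filter, at 0.23 and 1.1 FPKM. POX02407 rose from 21.3, 24.2 and 20.7 FPKM in control replicates 1, 2 and 3 to 764, 782 and 568 FPKM in deletion replicates 1, 2 and 3, a log2 fold change of 4.96 ± 0.16 (SE; edgeR, adjusted p = 2.02e-07). Rises of at least 4-fold were called for 5.34% of tested genes.

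A pair of IDs close to POX02412 deviated in deletion replicate 3 in the other direction. POX02414 had 23.3, 31.3 and 104 FPKM in deletion replicates 1, 2 and 3, and POX02415 had 2.98, 3.04 and 10.1 FPKM, that is 3.83 and 3.35 times the mean of the others in replicate 3. The control levels were 37.4 ± 1.08 and 1.85 ± 0.16 FPKM (SD, n = 3 each). POX02414 was not called over all 6 libraries (log2 fold change 0.47; edgeR, adjusted p = 0.429), and without deletion replicate 3 it was called lower (-0.48; edgeR, adjusted p = 0.00382). POX02415 was called higher, at a log2 fold change of 1.5 with that library and 0.68 without it (edgeR, adjusted p = 0.0266 and 0.00782).

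**Figure D5:**
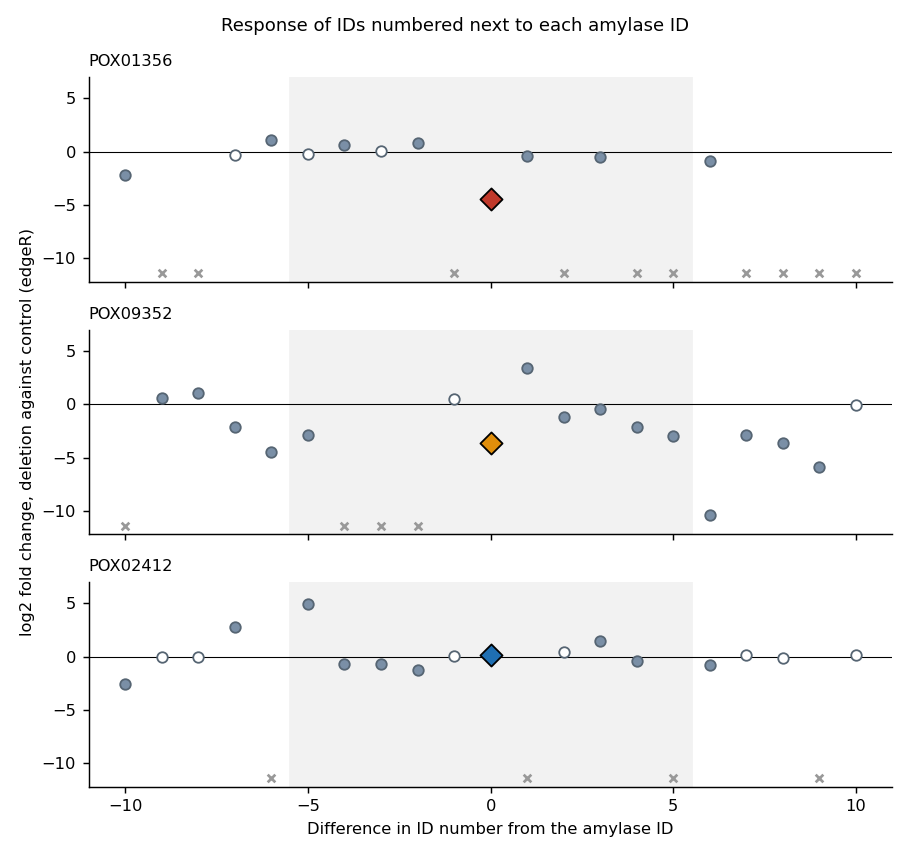
The log2 fold change (edgeR, deletion against control) of IDs up to 10 numbers from each amylase ID, with the amylase ID as a diamond, called IDs filled, uncalled IDs open, and IDs below the expression filter as crosses at the bottom. The grey band marks the 5 numbers on each side that were counted. POX01356 at -4.45 lies below its counted neighbours, which run from -0.46 to 0.85, whereas the counted neighbours of POX09352 run from -2.998 to 3.43.

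Other IDs, recalled from published work as genes for plant cell wall degradation, were used for scale. Their names could not be checked here, and the lists may leave out other such genes. Of 11 IDs recalled as cellulase genes, 9 were tested, of which 1 was lower and 6 were higher in the deletion strain, with log2 fold changes from -0.59 to 3.20. Among all tested genes 30.2% were lower and 29.8% higher, so these counts are for scale only. Of 4 IDs recalled as xylanase genes, 2 were tested, of which 1 was lower and 1 was higher, at -2.60 and 0.39, where 60.1% of all tested genes were called. None of these 15 IDs exceeded 31.5 FPKM in the control mean, and those recalled as cellulase genes had 0.35 to 26.3 FPKM. Each of the 3 amylase IDs, at 459 FPKM or more, lay above all of these listed IDs. With the names unchecked, this does not compare amylase with cellulase transcripts in general. In the deletion strain the highest of the cellulase IDs, POX06835, had 247 FPKM, above POX01356 and POX09352 and below POX02412. The other cellulase IDs called higher stayed low, with means of 0.36 to 3.25 FPKM in the control and 2.06 to 7.72 FPKM in the deletion strain.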

How the data were processed

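Each library's deposited table gives, per its file header, the expected count and FPKM of 9834 IDs. Tools named in the submitters' processing notes, with no role stated, are RSEM 1.2.12, BWA 0.7.10-r789, DESeq2 and Bowtie2 2.1.0. For genome build, annotation, strandedness and read filtering, the sources used here give nothing. The expected counts deposited by the authors are not normalized and divide reads that match several genes; 17 of the 18 values of the amylase IDs were whole. The FPKM values were scaled by the authors to gene length and library total.

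Expected counts were rounded and tested with edgeR 4.0.16 (quasi-likelihood test, TMM factors, R 4.3.3), without a block, where the mean over the 6 libraries reached 1 FPKM (8807 genes). Calls used a Benjamini-Hochberg adjusted p under 0.05 over all tested genes. Each SE is the log2 fold change over the root of its F statistic. Alternatives included limma 3.58.1 on log2(FPKM + 1) and DESeq2 1.42.0. All of the tools were also run on simulated counts in which few genes were changed. The deposited data differ in this, so that run does not check the calls made here. The replicate letters F, S and T were numbered 1 to 3.

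The amylase IDs and the lists were chosen with earlier results of these data known. The genes named are the amylase IDs, POX09752, adjacent IDs and those within 5 numbers changed at least 4-fold, and the 5 genes of most similar profile per amylase ID; the 6 IDs at 6 to 10 numbers from POX09352, POX02414, POX02415 and POX06835 were added after their values were seen. No sequence of these IDs was used here.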

Additional observations from a re-analysis of the deposited data

How the results depend on the processing

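Over 10 alternatives of scaling, filter, pseudocount, tool and pairing, and with each library left out, POX01356 and POX09352 kept their direction and their call, with log2 fold changes of -4.63 to -4.15 and -3.85 to -3.33, and 2 members were called lower each time. The log2 fold change of POX02412 was -0.062 without deletion replicate 1, -0.00088 without deletion replicate 2 and 0.41 without deletion replicate 3, and only the last was a call. The differences between members kept their direction in each of 10 alternatives. Changed genes numbered 5290, with a lowest count of 4454 (control replicate 3 left out) and a highest of 5851 (deletion replicate 3 left out), and the 16 adjacent IDs called became 12 to 18 with a library left out. Whether the replicate letters pair the samples was not settled. Same-letter deviations correlated at -0.02, 0.16 and 0.07, and different-letter ones at -0.13 to 0.06. Deviations within a strain are tied to each other, so these values cannot decide it. A replicate block by letter gave 5282 called genes and log2 fold changes of -4.52, -3.68 and 0.05 for POX01356, POX09352 and POX02412. Paired by letter, the differences between members gave p = 0.25 in the exact sign-flip test, the smallest that 3 pairs allow. The lowest count behind an amylase value was 707.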
